A study of Rattus norvegicus with 16 samples.

Results

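Ion channels and neurotransmitter receptors set how a muscle fibre, and the nerve and vessel cells around it, respond to current, calcium and chemical signals. Of the 1096 named genes measured, 24 belonged here. They were chosen by gene symbol alone, from name patterns for 14 families of channels and receptors, and 8 of those families had a measured gene. The calcium channel gene Cacna1s was left out of the list by the same rule. The RNA came from a fast hind limb muscle, the extensor digitorum longus, of Brown-Norway rats 6 months old. There were 8 arrays of innervated control muscle and 8 of muscle denervated for 2 months, each numbered as rats 1 to 8. The sources used here do not give the method of denervation, the sex of the animals or whether equal numbers mark 1 animal. P-values therefore measure the spread between these arrays.

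Skeletal muscle fibres fire action potentials through sodium channels and end them through potassium channels, and a large chloride conductance keeps the innervated fibre quiet between impulses. Loss of the nerve is known to make the membrane less negative, to spread acetylcholine receptors over the fibre and to start spontaneous activity. Apamin-sensitive calcium-activated potassium channels, which are scarce in innervated adult muscle, are known to appear in denervated muscle. Many other genes of these families are best known from brain, heart or peripheral nerve.

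All values are the deposited normalised hybridisation values on a logarithmic scale whose base is not given, so differences are stated in log units (denervated minus control) and not as folds. On each array the lowest value was shared by 22 to 206 probes. A value there, called the floor, gives only an upper bound. Array means over 1176 probes lay between 8.19 and 8.31 log units, except for that of control rat 6 at 6.63. This array gave the lowest control value for 19 of the 24 genes and for 62.9% of all probes. Muscle identity was checked with 5 genes, of which Ckm, the muscle creatine kinase, stood at 13.01 ± 1.88 in control and 13.72 ± 0.71 in denervated muscle (SD, n = 8 per group). Cacna1s, the voltage sensor of muscle, stood at 10.59 ± 0.89 and 10.56 ± 0.27. The other 3 passed in limma: Mylk2, the skeletal muscle myosin light chain kinase, fell by 1.87 (adjusted p = 0.000418), and the myogenic factors Myog and Myod1 rose by 1.85 (adjusted p = 0.000379) and 1.33 (adjusted p = 0.0450). By exact permutation 2 of the 5 passed. Arrays also resembled others of their own set of rat numbers, 1 to 4 or 5 to 8. Deviations from the group means correlated by 0.097 on average between differently numbered control and denervated arrays within a set and by -0.11 between sets. Deviations cancel out within a group, so a positive mean within sets brings a negative one between them. The latter is therefore not separate evidence for sets. The labels do not mention such sets. Over all probes 18 passed as higher and 12 as lower in rats 1 to 4 (median difference -0.03), and 131 and 8 in rats 5 to 8 (median 0.55). Control rat 6 is among the controls of rats 5 to 8, so its low level enters every difference of that set. Over both sets the all-probe median was 0.22 with that array and 0.03 without it. Its part in the contrasts between the sets was not tested.

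Denervation was accompanied by a clear rise of 1 gene, Kcnn3, and by no passing fall. The call rule was a Benjamini-Hochberg adjusted p under 0.05 in limma, adjusted over all 1176 probes. Of the 24 genes 1 (4.17%) passed as higher, where 5.44% of all probes did, and 0 passed as lower, where 0.85% did. At an unadjusted p 3 of 24 (12.5%) passed, Kcnn3, Scn8a and P2ry14, where 17.9% of all probes did. The exact permutation test of each gene over the 16 arrays, adjusted over all probes, also called 1, again Kcnn3. The share of channels and receptors that changed was thus near or below that of the membrane as a whole. In 13 of 24 genes (54.2%) the difference was above 0, against 63.7% of all probes. Their median difference was 0.05, and that of all probes 0.22. The median of the 24 genes had no stable sign: it was -0.16 after centring each array, -0.03 after quantile normalisation and -0.06 without control rat 6. In those settings 10, 12 and 10 of the 24 differences were above 0, and the all-probe median was 0.01, -0.01 and 0.03. Leaving out 1 other array at a time gave -0.03 to 0.20 for the 24 genes. Over all probes 64 passed as higher and 10 as lower, and the split was 35 and 15 after centring each array on its median and 35 and 27 after quantile normalisation. In none of the 24 genes were the 16 values fully separated between groups, which held for 1.28% of all probes.

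**Figure D1:**
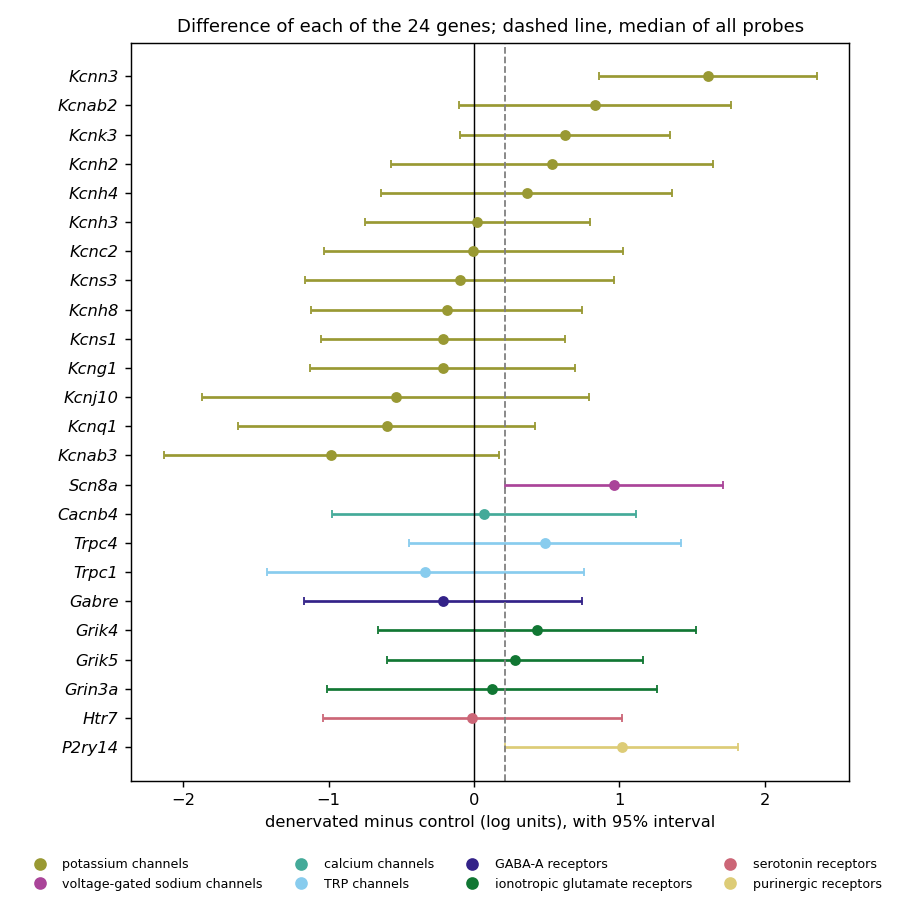
Difference between denervated and control muscle for each of the 24 genes, in log units, with limma's 95% interval (8 arrays per group) and the families in colour. The intervals of Kcnn3, Scn8a and P2ry14 lie above 0, those of the other 21 genes include 0, and the dashed line marks the median of all probes at 0.22.

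Kcnn3 encodes a small-conductance channel that lets potassium out of the cell when calcium binds its calmodulin, and it is the target of the bee toxin apamin. Control values ran from 8.24 through a median of 9.29 to 10.48, and denervated values from 10.09 through 11.05 to 11.62. Of the 8 denervated arrays 5 lay above all controls, and 6 of the 8 control arrays lay below all denervated arrays. None of the 16 values was at a floor. The mean rose from 9.30 ± 0.83 to 10.91 ± 0.64 (SD, n = 8), a difference of 1.61 (SE 0.37, 95% interval 0.86 to 2.36, limma adjusted p = 0.00348). By p it ranked 24 among the 1176 probes.

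The overlap of the Kcnn3 groups lay between the sets of rats, not within them. In rats 1 to 4 control values ran from 9.49 to 10.48 and denervated values from 11.28 to 11.62. In rats 5 to 8, whose level was lower in both groups, they ran from 8.24 to 9.09 and from 10.09 to 10.81. The groups were therefore fully separated in each set, with 4 arrays per group. The same separation in both sets, in 1 direction, was found in 1 of 24 genes (4.17%) and in 2.64% of all probes. The difference was 1.48 in rats 1 to 4 (limma adjusted p = 0.0126) and 1.74 in rats 5 to 8 (limma adjusted p = 0.00139).

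Omitting control rat 6, the low array, lowered the Kcnn3 difference to 1.46 (limma adjusted p = 0.00707), the smallest value when 1 array was left out, and omitting any other single array gave 1.49 to 1.78. Relative to each array's own median, Kcnn3 stood 1.19 ± 0.77 above it in control and 2.60 ± 0.86 above it in denervated muscle (SD, n = 8). Quantile normalisation gave the smallest difference, 1.16 (limma adjusted p = 0.00575). Centring each array and then raising all low values to a common floor ended the call (adjusted p = 0.0512), although no Kcnn3 value was altered by that floor.

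**Figure D2:**
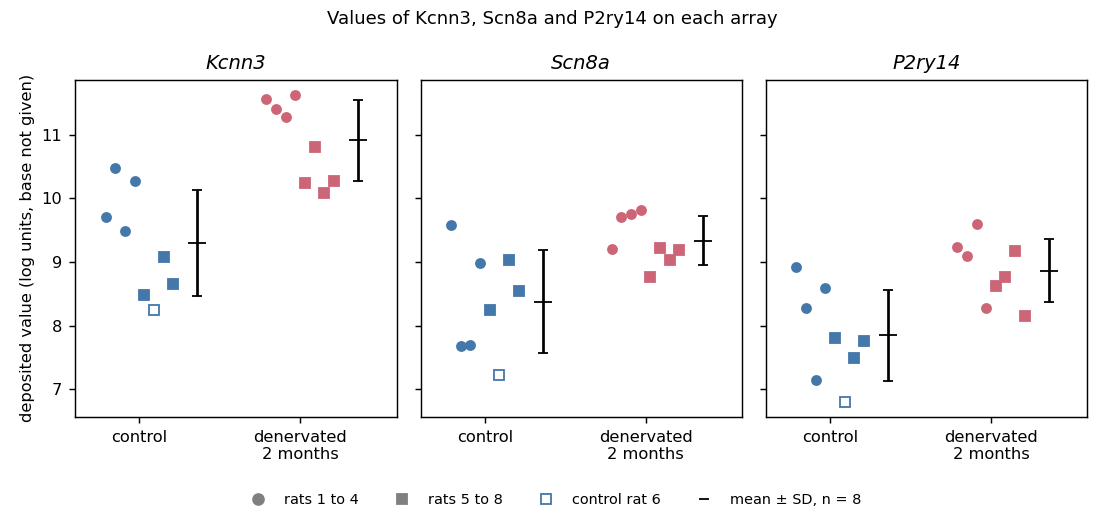
Deposited values of Kcnn3, Scn8a and P2ry14 on each of the 16 arrays, in log units, with circles for rats 1 to 4, squares for rats 5 to 8, an open square for control rat 6, and bars for mean ± SD (n = 8). All denervated Kcnn3 values lie at 10.09 or above, and the control values of the same set of rats lie below them.

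The start region of Kcnn3 is shown because it was the gene that passed, beside that of P2ry14, which has the largest difference among the receptors. Sequences are RefSeq's for assembly GRCr8, each from 250 bases before to 50 bases after the start of the gene. They are printed 5′ to 3′ on the gene's strand in lower case, with matches to either of a pair of motifs in capitals. The motifs were CAGCTG, an E-box bound by myogenic factors, and TGTGGT, the core bound by RUNX factors, both searched on both strands. The Kcnn3 window lies on the plus strand at chr2:177234090-177234389 and the P2ry14 window on the minus strand at chr2:145538461-145538760.
Kcnn3: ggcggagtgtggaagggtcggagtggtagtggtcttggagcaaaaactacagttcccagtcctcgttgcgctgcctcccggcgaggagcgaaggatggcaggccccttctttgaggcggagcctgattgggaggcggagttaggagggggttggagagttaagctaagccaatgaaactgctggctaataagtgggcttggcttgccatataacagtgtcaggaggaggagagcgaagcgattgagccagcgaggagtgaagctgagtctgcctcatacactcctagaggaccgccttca
P2ry14: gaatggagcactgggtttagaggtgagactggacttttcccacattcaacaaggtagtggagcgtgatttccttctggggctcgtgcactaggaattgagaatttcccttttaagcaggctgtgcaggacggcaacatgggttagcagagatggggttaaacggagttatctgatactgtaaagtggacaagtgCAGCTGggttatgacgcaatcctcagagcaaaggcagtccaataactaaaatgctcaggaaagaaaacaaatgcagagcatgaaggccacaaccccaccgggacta
Kcnn3 held neither motif, and P2ry14 held 1 CAGCTG that begins 56 bases before the start. Windows were listed for 17 of the 24 genes. Of these 7 (41.2%) held CAGCTG, as did 15.1% of 27457 rat windows of the same length, and 1 (5.88%) held TGTGGT, as did 16.9%. The CAGCTG of Kcnab3 and that of Kcnj10 begin after the start. These shares were not tested and not matched for base composition. G and C made up 39.7% (Trpc4) to 84.7% (Scn8a) of the listed windows, and the median over all rat windows was 52.3%. A match describes the letters of the window and not a bound site.

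The potassium channel genes, the largest family here with 14 members, had 1 rise and no passing fall. In 6 of 14 the difference was above 0, and the family median was -0.05. Among the 11 genes of voltage-gated channels none passed in limma, at limma's unadjusted p or by adjusted exact permutation, and their median difference was -0.10, from -0.98 to 0.83.

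Differences of opposite sign were measured for Kcnab2 and Kcnab3, which encode cytoplasmic beta subunits that attach to voltage-gated channels and shape their gating and traffic. Kcnab2 values ran from 5.88 through a median of 7.07 to 8.26 in control and from 7.18 through 7.88 to 9.08 in denervated muscle. The groups overlapped, and the difference was 0.83 (SE 0.47, limma adjusted p = 0.340; exact permutation unadjusted p = 0.0289), with 1 control value at the floor. Rats 1 to 4 gave 0.34 and rats 5 to 8 gave 1.32. Kcnab3 values ran from 4.75 through 7.31 to 9.20 in control and from 4.94 through 6.07 to 7.53 in denervated muscle. Its difference was -0.98 (SE 0.57, limma adjusted p = 0.358), and -1.33 without control rat 6, which held the low control value of 4.75 (limma adjusted p = 0.127). Of the denervated Kcnab3 values 1 was at the floor, and with a common floor the difference was -0.56 (limma adjusted p = 0.301). In rats 1 to 4 all Kcnab3 values of denervated muscle, 5.40 to 6.77, lay below all control values, 7.30 to 9.20. In rats 5 to 8, whose controls include control rat 6, the groups overlapped and the difference was -0.26. The other controls of that set lay at 7.13 to 7.39, and its denervated values at 4.94 to 7.53.

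Within an array a shift common to the whole array cancels between these genes, but unequal floors and unequal spread do not. The value of Kcnab2 minus that of Kcnab3 was -0.0040 ± 1.39 in control muscle, above 0 on 4 of 8 arrays. In denervated muscle it was 1.81 ± 1.14, above 0 on 8 of 8 arrays, from 0.67 to 3.68. The Kcnab2 value of control rat 5 and the Kcnab3 value of denervated rat 3 were at the floor. After quantile normalisation the differences between groups were 0.50 for Kcnab2 and -1.03 for Kcnab3. With arrays centred and a common floor they were 0.49 and -0.51. The pair was picked after its values were seen and was not tested, and its offset also carries the unequal binding of the 2 probes.

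**Figure D3:**
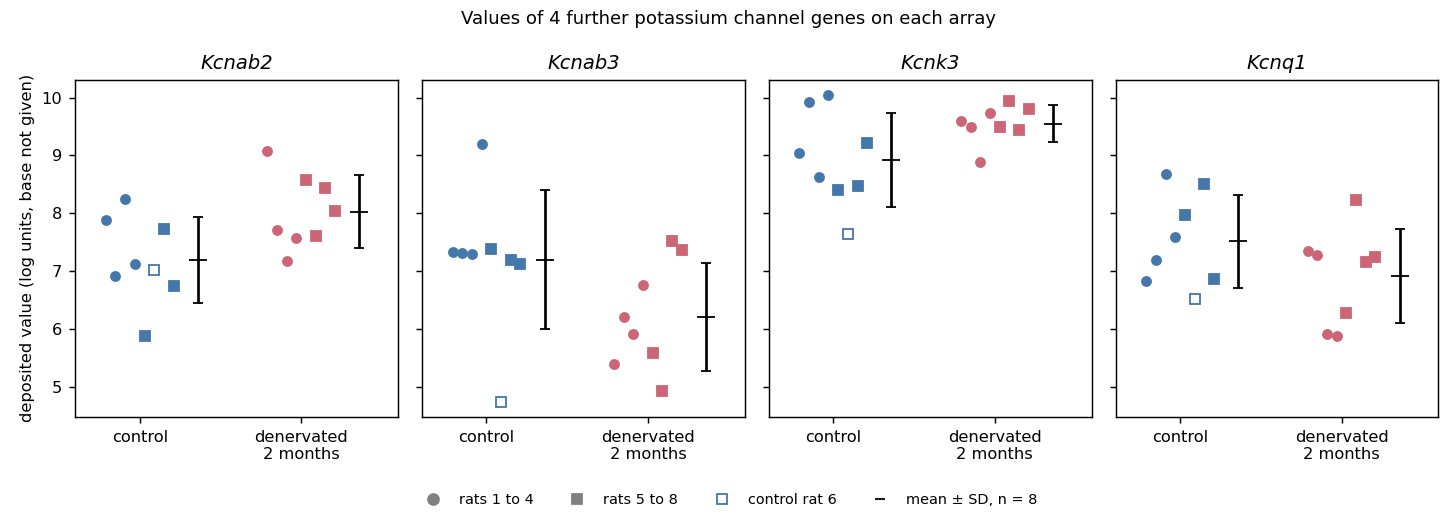
Deposited values of Kcnab2, Kcnab3, Kcnk3 and Kcnq1 on each of the 16 arrays, in log units, with symbols and bars for rats 1 to 4, rats 5 to 8, control rat 6 and mean ± SD (n = 8). Groups overlap in all 4 genes, and control rat 6 holds the lowest control value of Kcnab3, Kcnk3 and Kcnq1.

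Kcnk3, an acid-sensitive leak channel of the 2-pore family that helps hold the resting potential, had control values from 7.64 through 8.84 to 10.04 and denervated values from 8.89 through 9.55 to 9.93. The denervated arrays were closer together, with an SD of 0.32 against 0.81, and lay inside the upper part of the control range. The difference was 0.62 (SE 0.36, limma adjusted p = 0.355). It arose in rats 5 to 8, where denervated values of 9.43 to 9.93 lay above all controls at 7.64 to 9.22, while in rats 1 to 4 the difference was 0.02. The lowest of those controls, 7.64, came from control rat 6. The test of the difference between the sets of rats gave an unadjusted p of 0.0465 and a limma adjusted p of 0.354.

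Kcnq1 forms the slow delayed rectifier of the heart. Its values went from a control median of 7.39 (6.53 to 8.68) to a denervated median of 7.1998 (5.89 to 8.23), with 2 denervated values at the floor. The difference of -0.60 (SE 0.51) did not pass (limma adjusted p = 0.560), and its interval ran from -1.63 to 0.42. Rats 1 to 4 gave -0.96 and rats 5 to 8 gave -0.24.

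The ether-a-go-go related genes comprise Kcnh2, the ERG channel that repolarises heart muscle and has been linked to muscle wasting, and Kcnh3, Kcnh4 and Kcnh8, channels best known from brain. None of these 4 passed. Kcnh2 differed by 0.54 (SE 0.55, limma adjusted p = 0.669), which rested on control rat 6: its value there was at the floor of 3.27, while the next lowest control value was 7.04. Without that array the Kcnh2 difference was -0.05. With all arrays kept the sets differed in sign, at -0.42 for rats 1 to 4 and 1.501 for rats 5 to 8. The latter value includes the floor value of control rat 6. Kcnh4 differed by 0.36, and by 0.05 without control rat 6, and Kcnh8 by -0.19.

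Kcnh3 had a narrow control group, from 8.23 on control rat 6 through a median of 9.25 to 9.61. Its denervated values spread from 7.23 to 10.0003 around a median of 9.54, and the low ones, 7.23 and 7.84, came from rats 3 and 4. The overall difference was 0.02 (SE 0.39, interval -0.75 to 0.80, limma adjusted p = 0.986), made of -0.68 in rats 1 to 4 and 0.73 in rats 5 to 8. That contrast between the sets had the lowest p of the 24 genes (unadjusted p = 0.0326, limma adjusted p = 0.326).

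Kcng1, Kcns1 and Kcns3 encode electrically silent subunits that alter other voltage-gated channels when built into them. All 3 differences were slightly below 0, at -0.22, -0.21 and -0.10, with limma adjusted p-values of 0.862, 0.858 and 0.948. The Kcng1 value turned on control rat 2, whose 10.28 was its highest, and without that array the difference was 0.09. Kcns3 turned too, to 0.09 without control rat 8. Kcnc2, a pore subunit of fast-spiking neurons, stood at 7.30 ± 0.68 and 7.30 ± 1.03, a difference of -0.0038 with an interval from -1.03 to 1.02.

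Kcnj10, the inward rectifier through which glial cells take up potassium, was the gene most often at the floor, on 4 of 8 control and 2 of 8 denervated arrays. Its values ran from 3.27 to 8.26 in control and from 2.75 to 7.31 in denervated muscle, and the difference of -0.54 (SE 0.66, limma adjusted p = 0.726) is therefore between bounds in part. Floors themselves were unequal: they lay at 2.51 to 4.08 on the denervated arrays of rats 5 to 8, at 3.27 on that of control rat 6 and between 4.99 and 6.69 elsewhere. With a common floor the Kcnj10 difference shrank to -0.19, and the sets gave 0.35 (rats 1 to 4) and -1.42 (rats 5 to 8). Over all 24 genes, 13 of 192 control values and 7 of 192 denervated values were at a floor, and 12 genes were never there.

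Scn8a, the sodium channel concentrated at nodes of Ranvier, had control values from 7.23 through a median of 8.40 to 9.58. Denervated values were higher and closer together, from 8.77 through 9.21 to 9.81. Of the 8 control arrays 5 lay below all denervated ones, and 3 denervated arrays lay above all controls. The difference was 0.96 (SE 0.37, 95% interval 0.21 to 1.71) and missed the threshold (unadjusted p = 0.0131, limma adjusted p = 0.124). It was 1.14 in rats 1 to 4, 0.79 in rats 5 to 8 and 0.80 without control rat 6. It stayed above 0 in each alternative tried, from 0.63 to 1.14, and passed in none (lowest adjusted p = 0.0607).

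The remaining channels were Cacnb4, an auxiliary subunit that brings voltage-gated calcium channels to the membrane, and Trpc1 and Trpc4, cation channels opened downstream of receptors and of calcium store depletion. None passed in limma, at an unadjusted p or by exact permutation. Cacnb4 stood at 6.95 ± 0.86 and 7.02 ± 0.60, with 2 control values at the floor. Trpc4 went from 7.56 ± 1.15 to 8.05 ± 0.33, a difference of 0.49 (SE 0.47, limma adjusted p = 0.623), and 0.19 without control rat 6.

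Trpc1 differed by -0.34 (SE 0.54, limma adjusted p = 0.811) with opposite values in the sets of rats. In rats 1 to 4 it averaged 6.99 ± 0.35 in control and 7.61 ± 1.22 in denervated muscle, a difference of 0.62. In rats 5 to 8 it averaged 7.47 ± 0.77 and 6.17 ± 0.97, a difference of -1.30 (SD, n = 4 per group). The contrast between the sets was not called (unadjusted p = 0.0743, limma adjusted p = 0.420).

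**Figure D4:**
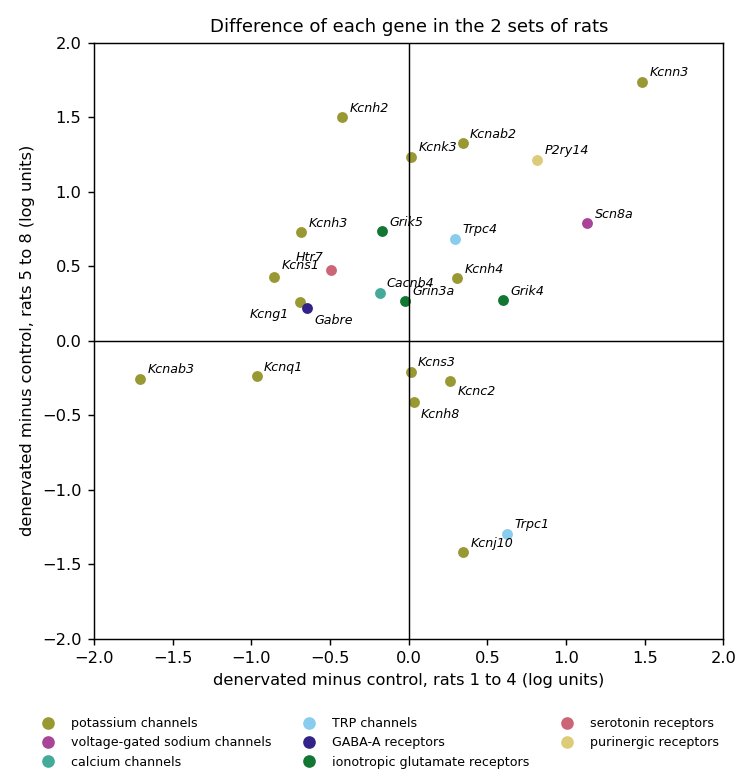
Difference between denervated and control muscle, in log units, in rats 1 to 4 (horizontal) and rats 5 to 8 (vertical), each point 1 gene from 4 arrays per group and coloured by family. Kcnn3 lies farthest out in the quadrant that is positive in both sets, and 14 of the 24 genes lie in a quadrant of opposite signs.

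Signs differed between the sets in 14 of 24 genes, where 42.2% of all probes did so. The contrast between the sets, tested as an interaction in limma, passed for 0 of 24 genes and 0% of all probes. At an unadjusted p it passed for 2 of 24, Kcnh3 and Kcnk3, and for 13.5% of all probes. Full separation of the groups was found for 2 genes in rats 1 to 4 (8.33%, against 7.48% of all probes) and for 3 in rats 5 to 8 (12.5%, against 20.1%). The first were Kcnn3 and Kcnab3, and the others Kcnn3, Kcnk3 and P2ry14.

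Receptors numbered 6, with a median difference of 0.20 and 0 calls in limma or by exact permutation. P2ry14, a G protein-coupled receptor for UDP-glucose, was the 1 that passed at an unadjusted p. Its control values ran from 6.81 through 7.78 to 8.92 and its denervated values from 8.16 through 8.93 to 9.59. Of the denervated arrays 4 lay above all controls, and 5 control arrays lay below all denervated ones. The difference was 1.02 (SE 0.40, 95% interval 0.21 to 1.82, unadjusted p = 0.0141, limma adjusted p = 0.128). In rats 5 to 8 the groups were separated, at 6.81 to 7.80 and 8.16 to 9.18, and control rat 6 held the 6.81. In rats 1 to 4 they overlapped, at 7.14 to 8.92 and 8.28 to 9.59. The difference there was 0.82 (limma adjusted p = 0.545). Alternatives gave 0.81 to 1.21, and none passed (lowest adjusted p = 0.07003).

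The ionotropic glutamate receptor genes were Grik4 and Grik5, the high-affinity kainate receptor subunits, and Grin3a, an NMDA receptor subunit that lowers calcium entry. They differed by 0.43 (SE 0.55), 0.28 (SE 0.44) and 0.12 (SE 0.57), with limma adjusted p-values of 0.729, 0.798 and 0.940. Control values were widely spread, from 4.57 to 8.11 for Grik4, 6.42 to 9.38 for Grik5 and 5.04 to 9.40 for Grin3a. Without control rat 6 the 3 differences were 0.10, 0.05 and -0.21. Grin3a also stood below 0 after centring, at -0.09, and after quantile normalisation, at -0.14.

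Gabre, the epsilon subunit of the receptor for the inhibitory transmitter GABA, went from 7.62 ± 0.76 to 7.41 ± 0.65, a difference of -0.21 (limma adjusted p = 0.872). Htr7, a serotonin receptor that raises cyclic AMP, stood at 7.26 ± 0.68 and 7.25 ± 0.98 (limma adjusted p = 0.995, interval -1.04 to 1.02). For both, changes of up to about 1 log unit lie within the interval.

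Control arrays were more variable than denervated ones for most of the genes. The SD was larger in control for 18 of 24 genes, as for 70.7% of all probes. The median SD was 0.892 in control and 0.663 in denervated muscle, against 0.987 and 0.772 for all probes. Without control rat 6 the count was 16 of 24, against 55.8% of all probes, and the control median 0.758.

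**Figure D5:**
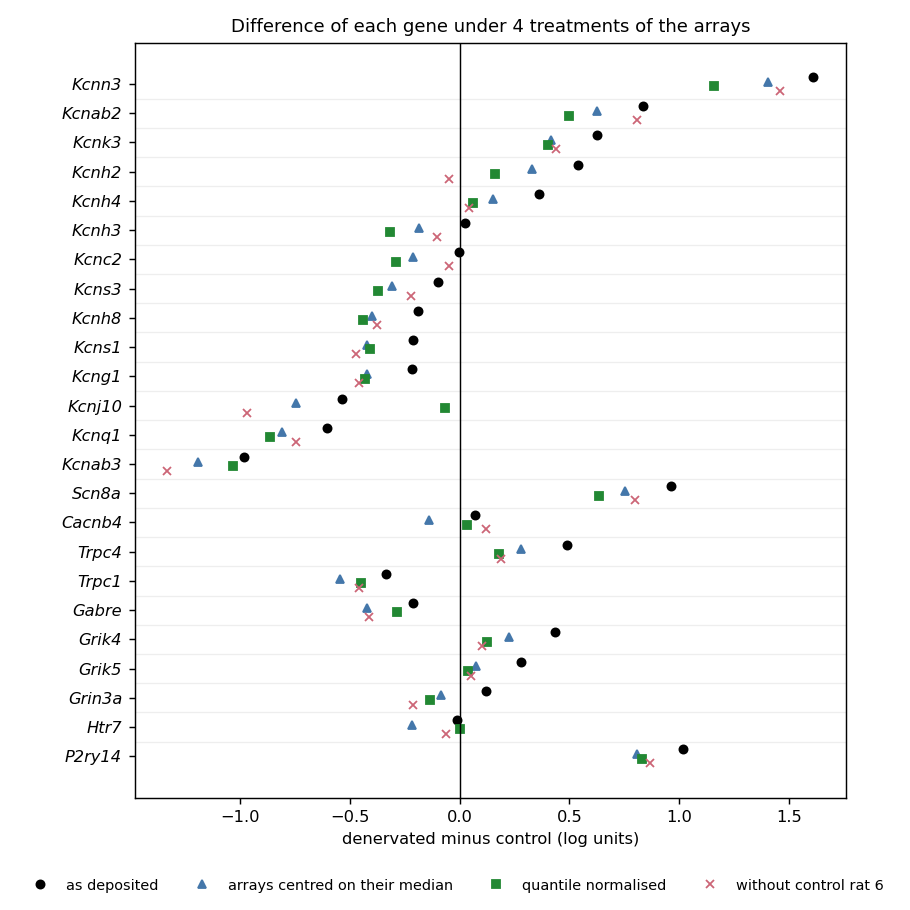
Difference of each gene, in log units, with values as deposited, after centring each array on its median, after quantile normalisation and without control rat 6 (7 control and 8 denervated arrays). Most points move to lower values under these treatments, and Kcnn3 stays the highest under all 4, between 1.16 and 1.61.

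Other genes of membrane transport and transmission were counted from lists of related functions. None of 4 ion pumps and exchangers, 4 neurotransmitter transporters, 2 enzymes of transmitter metabolism, 3 G protein subunits or 3 RGS regulators passed in limma, at an unadjusted p or by exact permutation. Their median differences were 0.16, 0.14, 0.21, 0.51 and -0.07. Of 8 postsynaptic scaffold genes 0 passed in limma or by exact permutation and 1 at an unadjusted p. This was Dlg3, whose product anchors glutamate receptors, with 8.28 ± 0.90 in control and 9.42 ± 0.27 in denervated muscle (limma adjusted p = 0.0610). Shank2, another of the 8, was at the floor on 8 of 8 control and 7 of 8 denervated arrays, so its difference is mostly between bounds. Casq2, the calcium store protein of cardiac and slow muscle, was the 1 measured gene of a list of ryanodine and inositol trisphosphate receptors, calsequestrins, calmodulins and parvalbumin, which left out the S100 calcium-binding genes. It was higher by 1.77 (SE 0.38, limma adjusted p = 0.00126).

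Markers of other cells also moved in the same comparison. In such bulk muscle RNA a change in the number of cells of a type and a change in RNA per cell cannot be told apart. All 3 fibroblast markers rose, in limma and by exact permutation, and their mean per array ran from 7.49 to 10.24 in control and from 10.998 to 12.10 in denervated muscle. Of 8 Schwann cell and nerve markers 1 rose in limma, the neurofilament Nefm (1.38, adjusted p = 0.0318), and 0 passed by exact permutation, and their mean ran from 5.56 to 8.18 and from 7.53 to 8.41. The 4 macrophage and leukocyte markers had 0 calls in limma, 3 at an unadjusted p and 1 by exact permutation, with means of 7.58 to 9.29 and 7.88 to 9.10. The 3 went in both directions, with Cd48 at 1.24, C1qb at 0.95 and Cxcl1 at -1.92. Cxcl1 was at the floor on 4 of 8 control and 7 of 8 denervated arrays. The 2 vessel markers, Tagln and Myh11, did not pass in limma, at an unadjusted p or by exact permutation (means 5.45 to 9.65 and 6.68 to 9.72), and 1 of 2 adipocyte markers, Scd, rose (means 4.97 to 7.83 and 6.52 to 9.22). No marker in these lists was at the floor on all control arrays. Scd and Myh11 were there on 5 of 8 control arrays each, so their differences are in part between bounds. The part of these cells in the values of Kcnn3, Scn8a or P2ry14 was not tested.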

How the data were processed

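Labelled cDNA of 16 muscles had been hybridised to Clontech Rat Atlas membranes, read on a phosphorimager, quantified with Array Vision and normalised by linear regression, per the labels. Each deposited value is a normalised score in log units, with base, background correction and floor not given in the sources used here. Of 1185 probes, 9 reference probes on another scale were left out, and 1106 of the other 1176 had 1 gene, 2 several and 68 none in the platform table. All 24 genes had 1 probe each, which may also bind close relatives, and all 24 matched RefSeq by gene ID.

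Values were used unscaled in limma 3.58.1 under R 4.3.3 (lmFit, eBayes with trend, two-sided), fitted on all probes. Exact permutation covered 12870 groupings (smallest p 0.000155). The number of arrays limits the precision. The code was tested on simulated data. Members, lists, sets of rats and tests were chosen with earlier results of these data known. The naming rule took every gene at an unadjusted p under 0.05, the lowest p of each family and textbook genes (Kcnn3 and Scn8a among those measured); the rest were named after their values were seen. Alternatives are listed in the closing section. Figures used matplotlib 3.10.9.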

Additional observations from a re-analysis of the deposited data

Results flagged for a closer look

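Of the 50 sets of 8 values examined (each gene and the median over the 24 genes, in each group), 2 held a value far from the others by Dixon's criterion, which marks about 1 set in 20 by chance. Both lay on the array of control rat 6. Kcnh2 stood at 3.27 there, at the floor, with the nearest control value at 7.04, a gap of 0.651 of the range. Kcnab3 stood at 4.75 with the nearest at 7.13, a gap of 0.535.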

How the results depend on the processing

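Each difference was recomputed under 30 alternatives, 16 of which left out 1 array. Some can change the p-value but not the difference or its sign. Such were a block for rat number or for set of rats with all arrays kept, robust variance and exact permutation. Adding the reference probes and keeping only probes above the floor on at least 8 arrays were also of this kind. The others are named below. Kcnn3 passed in 29 of 30 (1.16 to 1.78). Under arrays centred with a common floor, chosen after seeing the data, 0 genes passed as higher (Kcnn3 adjusted p = 0.0512); the cause was not tested. No gene passed as lower and no other gene as higher under any of the 30. Rat number as a replicate block gave 1.61 for Kcnn3 (adjusted p = 0.000146) and changed no call among the 24 genes. Over all probes it gave 96 higher and 17 lower. Same-numbered arrays correlated by 0.059 to 0.193, over 0.1 in 7 of 8 pairs, against a mean of 0.097 for other numbers of the same set, and 2 of 8 rats correlated best with their own number. Because 1 pair lay under 0.1 and the labels do not state a pairing, the numbers were not taken as pairs; this does not show that they are unpaired. Leaving out 1 array gave 35 to 86 higher and 5 to 14 lower over all probes.

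The sign of uncalled differences turned in 15 of 24 genes under at least 1 alternative. After centring Cacnb4 stood at -0.14, Grin3a at -0.086 and Kcnh3 at -0.19, and with a common floor after centring at -0.31, -0.30 and -0.19, with Trpc1 at 0.018. A common floor alone gave Grin3a -0.19, Htr7 0.14, Kcnc2 0.13 and Trpc1 0.061. Quantile normalisation gave Grin3a -0.14, Htr7 0.00085 and Kcnh3 -0.32, and array weights gave Grin3a -0.038 and Htr7 0.026. Without control rat 6 and with the set of rats as a block, chosen after seeing the data, Grin3a stood at -0.31, Kcnh2 at -0.069, Kcnh3 at -0.16 and Kcnh4 at -0.018. In rats 1 to 4 alone the turned values were Cacnb4 -0.19, Grik5 -0.17, Grin3a -0.024, Kcnc2 0.26, Kcnh2 -0.42, Kcnh3 -0.68, Kcnh8 0.032, Kcnj10 0.35, Kcns3 0.013 and Trpc1 0.62. In rats 5 to 8 alone they were Gabre 0.22, Htr7 0.47, Kcng1 0.26 and Kcns1 0.43.

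Leaving out 1 array gave Cacnb4 -0.10 to 0.32, Grin3a -0.21 to 0.41, Htr7 -0.22 to 0.18, Kcnc2 -0.23 to 0.28, Kcng1 -0.46 to 0.089, Kcnh2 -0.049 to 0.78, Kcnh3 -0.10 to 0.30, Kcnh8 -0.38 to 0.027 and Kcns3 -0.29 to 0.087.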
